A study of Mus musculus with 12 samples.

Results

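The genes described here encode the proteins of the cytosolic ribosome, read in mouse hearts that carry mutant IDH2 and in control hearts. A gene was taken where the platform annotation gives its probe set 1 symbol that begins with Rpl or Rps and a number, or is Rplp0, Rplp1, Rplp2 or Rpsa. Symbols of the S6 kinases (Rps6k), pseudogene symbols with "-ps", Rpl3 and Rpl3l were left out by name. This gave 62 genes of 19937 tested, each represented by the brightest of its probe sets. The rule itself uses names, and intensity only to choose among the probe sets of a gene. Of the 62 genes, 33 carry plain names of large-subunit proteins and 21 of small-subunit proteins. Another 6 have names of paralogs or retrocopies (Rpl7l1, Rpl10l, Rpl32l, Rpl39l, Rps4l and Rps27l). The label holds less well for the last 2, since Rps19bp1 encodes a protein that binds Rps19 and regulates Sirt1, and Rps23rg1 is a retroposed gene derived from Rps23.

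A ribosome has a small subunit, which reads the messenger RNA, and a large subunit, which joins the amino acids. Each protein is present in about 1 copy per ribosome apart from the stalk proteins, and cells make the whole set in step. Messenger RNAs of ribosomal proteins typically begin with a pyrimidine tract, the TOP (terminal oligopyrimidine) sequence, through which mTOR complex 1 and Larp1 control their translation and stability. In heart muscle, ribosome production is known to go up when the tissue grows.

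Of the 12 arrays, 4 were labelled as control mouse heart, 4 as IDH2 R140Q mutant heart and 4 as IDH2 R172K mutant heart. Both mutant enzymes are known to make D-2-hydroxyglutarate, and the series concerns cardiomyopathy. All mice had a mixed C57BL/6, 129/sv and Balb/c background. Mutant mice received 4-hydroxytamoxifen (4-OHT) at a dose of 2 mg when they were 5 weeks old, on 3 days. Whether control mice received 4-OHT, what switches on the mutant allele, and in which cells, is not stated in the labels. Drug and mutation therefore cannot be told apart in the contrasts with control. The time from treatment to dissection is not given either. Nothing in the labels says that the arrays of a group came from separate animals, and the p-values describe only how far these arrays spread, which may be technical. Both contrasts with control use the same 4 control arrays.

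Values are the authors' RMA intensities on a linear scale, of which log2 was taken. RMA gives all arrays nearly the same distribution, so a shift shared by most genes cannot be seen, and array medians lay between 74.8 and 78.0. All 10 cardiomyocyte markers listed were measured, and their summed intensity was 97580 to 102800 in control hearts, 89690 to 94510 with R140Q and 76260 to 92120 with R172K. Some arrays stood apart in markers of other tissue. The 6 atrial markers summed to between 5096 and 27410 in control hearts, 676.5 and 9955 with R140Q and 10730 and 20100 with R172K, and the 7 lung markers reached 5206 in an R140Q heart against 415.2 or less in control hearts. Counts of called genes are also given without control 3, R140Q 4 and R172K 3. Control 3 and R172K 3 were the highest of their groups in atrial markers, and R140Q 4 in lung markers. R140Q 2, the lowest of all arrays in atrial markers, was kept. In whole hearts, more RNA per cell and more cells of one type cannot be told apart.

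The spread of ribosomal protein genes within groups was about that of genes at large, with a median SD of 0.12 on the log2 scale against 0.13 over all genes. No member differed by more than 0.5 log2 units in any of the 3 contrasts. Of all 19937 genes, 846 did so between R140Q and control, 1614 between R172K and control and 628 between the mutants. The narrowest range over the 12 arrays was that of Rpl41, which codes for a very short large-subunit peptide, at 0.15 log2 units. Rpl23a (0.18), Rpl36 (0.20), Rpl19 (0.21) and Rpl27a (0.21) followed. The widest ranges belonged to Rpl34 (1.29), Rpl7a (0.94), Rpl12 (0.93), Rps3a1 (0.89) and Rpl29 (0.80), and these values are given below.

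**Figure D1:**
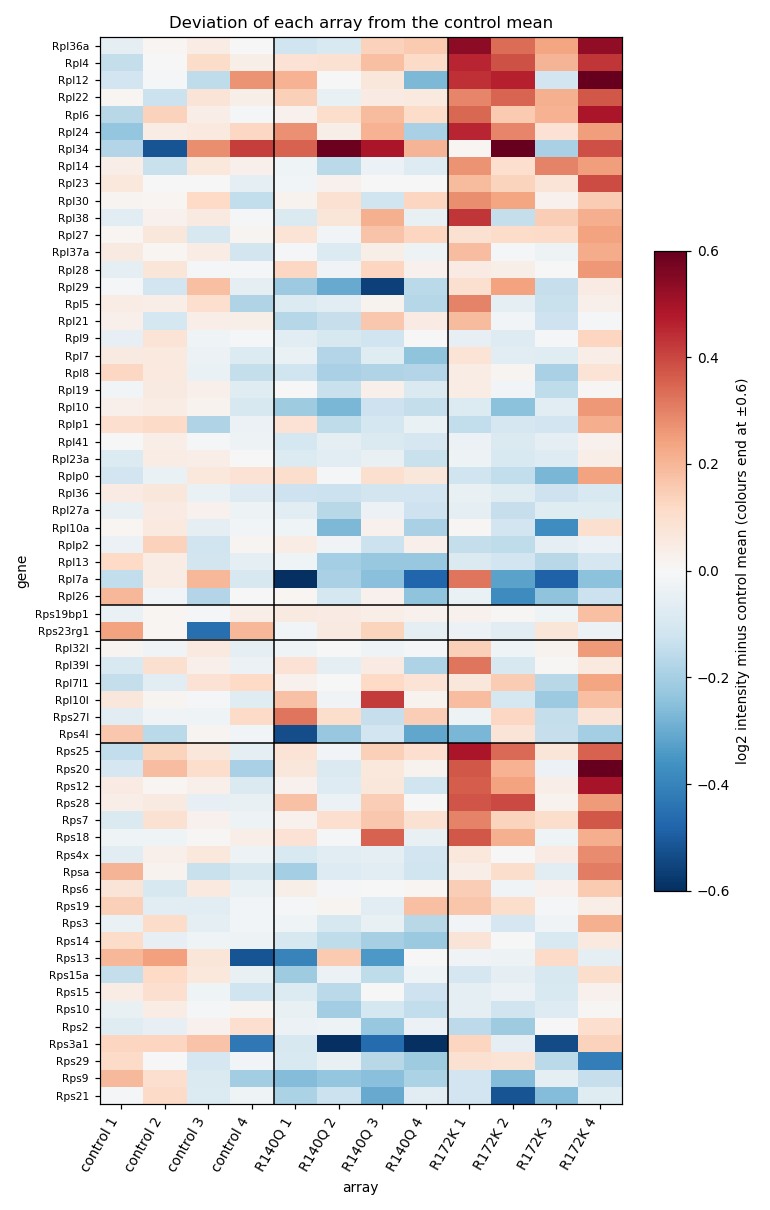
Log2 intensity of each of the 62 genes (rows) on each of the 12 arrays (columns) minus the mean of the 4 control arrays. Black lines separate the 3 groups of arrays and, from the top, large-subunit genes, the pair that shares only the name stem, paralogs or retrocopies, and small-subunit genes. Most cells are pale, and the reddest columns are R172K 1 and R172K 4.

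In R172K hearts 6 ribosomal protein genes were called higher and none lower against control. Of these 5 belong to the large subunit, Rpl36a, Rpl4, Rpl22, Rpl6 and Rpl14, and 1 to the small subunit, Rps25. The increases were between 1.17-fold and 1.33-fold. The 6 are 9.68% of the members. Over all genes, 6.23% were called higher in this contrast and 6.78% lower (limma, adjusted p under 0.05 over the 19937 genes). The share of members called higher is thus not far from that of genes at large. Most members had a mean log2 intensity over 10. Of the 1250 genes that bright, 161 were called higher and 196 lower, larger shares than over all genes. The count of members called lower is 0 (1 at an unadjusted p under 0.05, Rps21). At an unadjusted p under 0.05, 14 members were higher (all genes, 13.6% higher and 12.9% lower). The median difference of the members was 0.02 (all genes, -0.00), and from 0.01 (without R172K 4) to 0.072 (without R172K 3) when 1 array was left out. In all, 36 of 62 differences were positive (all genes, 49.1%). Within 0.2 log2 units of 0 lay 48 of the 62 (77.4%, against 70.1% of all genes). In 8 members all 4 R172K arrays lay above all 4 control arrays (12.9%, against 7.47% of all genes), and they were the called genes other than Rps25 together with Rpl23, Rpl27 and Rps7. Only Rpl27a had all 4 R172K arrays below all control arrays (1.61%, against 8.72% of all genes).

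Rpl36a, a large-subunit protein next to the exit site for transfer RNA, had the largest increase. Its log2 intensity was 10.83, 10.90, 10.93 and 10.88 in control hearts, 10.77, 10.79, 11.02 and 11.04 with R140Q and 11.42, 11.22, 11.12 and 11.42 with R172K (replicates 1 to 4 of each group). Every R172K array was above every other array. The difference from control was 0.41 ± 0.09 (SE, limma adjusted p = 0.0107, higher in 4 of 4 arrays), and the call held under 21 of 23 alternatives.

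Rpl4, which lines part of the tunnel through which the new protein leaves, read 10.05, 10.20, 10.31 and 10.23 in control hearts, 10.28, 10.29, 10.38 and 10.31 with R140Q and 10.66, 10.58, 10.40 and 10.63 with R172K. R172K 3 was the lowest of its group and still above all others. The difference from control was 0.37 ± 0.07 (adjusted p = 0.00807), and Rpl4 was the one member that passed under all 23 alternatives.

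Rpl22, an RNA-binding large-subunit protein known for its part in T cell development, read 7.998, 7.86, 8.06 and 8.02 in control and 8.28, 8.33, 8.20 and 8.36 in R172K hearts. R140Q hearts, at 8.13, 7.94, 8.03 and 8.04, lay among or just above the control values. The R172K difference was 0.31 ± 0.07 (adjusted p = 0.0119). It passed under 22 of 23 alternatives, failing only the threshold of 0.01.

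Rpl6 and Rpl14 encode neighbours on the surface of the large subunit. Rpl6 read 11.37, 11.68, 11.58 and 11.53 in control hearts, 11.57, 11.65, 11.73 and 11.65 with R140Q and 11.89, 11.70, 11.75 and 12.03 with R172K. R172K hearts stood above control by a small gap and overlapped R140Q hearts, and the difference from control was 0.30 ± 0.09 (adjusted p = 0.0368), a call kept under 11 of 23 alternatives. Rpl14 read 7.47, 7.30, 7.49 and 7.46 in control hearts, 7.40, 7.27, 7.39 and 7.35 with R140Q and 7.70, 7.53, 7.73 and 7.68 with R172K. For Rpl14 no R172K array overlapped either other group, and the difference from control was 0.23 ± 0.07 (adjusted p = 0.0402), a call kept under 8 of 23 alternatives.

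Rps25, a protein of the small-subunit head known for its role in initiation at internal entry sites, was the only small-subunit gene called. It read 10.49, 10.78, 10.71 and 10.59 in control hearts, 10.73, 10.63, 10.79 and 10.74 with R140Q and 11.13, 10.98, 10.71 and 10.998 with R172K. R172K 3 lay inside the control range. The difference was 0.31 ± 0.09 (adjusted p = 0.0398), a call kept under 9 of 23 alternatives.

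**Figure D2:**
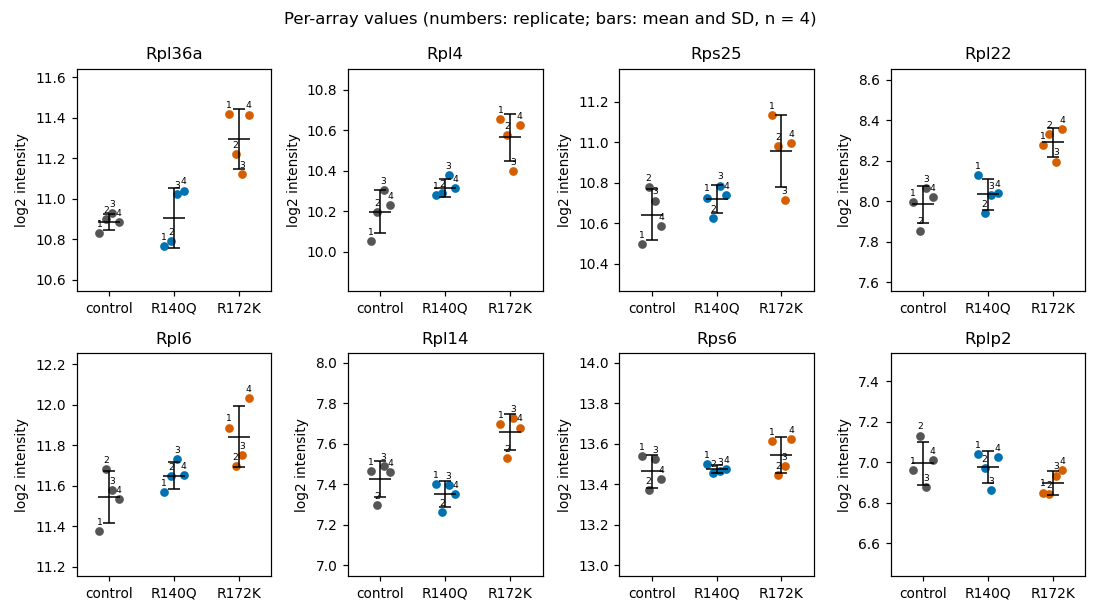
Log2 intensity on each array of the 6 genes called between R172K and control hearts, and of Rps6 and Rplp2, which were not called. Points are arrays with their replicate number, bars are the mean ± SD of 4 arrays, and every panel spans 1.1 log2 units. R172K 3 is the lowest R172K array for Rpl36a, Rpl4, Rps25 and Rpl22.

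The calls of Rpl4, Rpl22 and Rpl36a held whichever array was left out, and those of Rpl6, Rpl14 and Rps25 depended on single arrays. The count of 6 was 3 without control 1, control 3, control 4, R140Q 4, R172K 1 or R172K 4 (Rpl22, Rpl36a and Rpl4 each time), and 11 without R172K 3, when Rpl12, Rpl23, Rps7, Rps12, Rps20 and Rps28 joined and Rpl14 dropped out. Over all genes the share called higher was 11.1% without R172K 3 and 4.6% without R172K 4. It lay between 2.81% (without R172K 1) and 5.42% (without R140Q 4) where leaving 1 array out gave 3. With the array weights that limma estimates, 0.365 for R172K 3 and 0.366 for R172K 4 against 1.96 for R172K 1, 14 members were called, with 11.7% of all genes. Without control 3, R140Q 4 and R172K 3 together 8 members were called, Rpl4, Rpl12, Rpl22, Rpl36a, Rps12, Rps20, Rps25 and Rps28, with 9.12% of all genes.

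The R172K arrays differed among themselves across the set. R172K 4 held the highest value of all 12 arrays for 23 of the 62 genes and R172K 1 for 12, against 3 for R172K 2 and 1 for R172K 3. The median deviation of the members from their control means was 0.15 on R172K 4, 0.07 on R172K 1, -0.02 on R172K 2 and -0.06 on R172K 3. Counted by sign, 49, 40, 27 and 21 members lay above their control mean on R172K 4, 1, 2 and 3. R140Q arrays lay within a narrower band, from -0.06 to -0.01. Control 2 held the highest value for 11 genes and control 1 for 8.

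Fibroblast and macrophage markers followed the same order within R172K hearts. The 10 fibroblast markers summed to 24597 on R172K 4, 17770 on R172K 1, 14921 on R172K 2 and 12589 on R172K 3, and to between 10340 and 13800 in control hearts. The 10 macrophage markers summed to 9047.2, 5241.2, 4953 and 3378.3 on the same arrays, against 3225 to 4869 in control hearts. Cardiomyocyte markers were lowest on R172K 4 (76261) and highest on R172K 3 (92123). The other lists followed other orders. Endothelial (17264), atrial (20097) and erythroid (990.43) markers were highest on R172K 3, and lymphocyte (523.29) and proliferation markers (3360.6) on R172K 4 with orders of their own below it. In R172K against control, 5 of 10 fibroblast, 1 of 10 macrophage and none of 7 measured lymphocyte markers rose, and 5 of 10 cardiomyocyte markers fell. Of 10 endothelial markers 2 rose in R172K hearts (9 positive) and 3 in R140Q hearts (10 positive). In R140Q hearts fibroblast markers also ran in the members' order, from 16029 on R140Q 3 to 10899 on R140Q 2. Macrophage markers did not, and were highest on R140Q 2 (4612.4). In control hearts neither list followed the members' order. There macrophage markers were highest on control 4 (4869.3), where the members' median deviation was lowest (-0.03), and fibroblast markers on control 3 (13802). The part of these cell types in the ribosomal protein differences was not tested.

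The regions around the transcription starts of the called genes are shown because the TOP tract begins there. Sequences are from RefSeq (GRCm38.p6), of which 50 of the 62 members matched. Each runs 5′ to 3′ on the gene's strand from 40 bases before the annotated start to 20 after it, with every run of at least 8 pyrimidines in capitals. For Rpl22, which has 2 annotated starts, the one with the longer run is shown.
Rpl36a (chrX:134585614-134585673, + strand): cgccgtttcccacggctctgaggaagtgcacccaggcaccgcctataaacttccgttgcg
Rpl4 (chr9:64173347-64173406, + strand): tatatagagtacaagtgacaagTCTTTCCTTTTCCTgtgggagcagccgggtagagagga
Rps25 (chr9:44407674-44407733, + strand): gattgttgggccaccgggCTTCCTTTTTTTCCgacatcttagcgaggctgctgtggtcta
Rpl22 (chr4:152325686-152325745, + strand): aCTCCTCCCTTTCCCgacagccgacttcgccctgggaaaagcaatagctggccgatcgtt
Rpl6 (chr5:121204461-121204520, + strand): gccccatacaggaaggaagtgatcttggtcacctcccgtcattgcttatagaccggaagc
Rpl14 (chr9:120571477-120571536, + strand): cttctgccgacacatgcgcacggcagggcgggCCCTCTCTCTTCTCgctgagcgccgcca
For comparison, these are the same windows of Rps6 and Rplp2, which were not called.
Rps6 (chr4:86857348-86857407, - strand): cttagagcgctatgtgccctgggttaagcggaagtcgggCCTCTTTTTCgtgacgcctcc
Rplp2 (chr7:141447611-141447670, + strand): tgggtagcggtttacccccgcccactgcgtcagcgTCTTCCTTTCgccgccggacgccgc

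A run of at least 8 pyrimidines lay in this window in 27 of the 50 matched members (54%), against 27.2% of 27025 genes with a RefSeq start. It was present in 4 of the 6 called genes, Rpl4, Rps25, Rpl22 and Rpl14, each with a run of 14 bases. The uncalled Rps6 and Rplp2 also had it, with 10 bases each. Rpl41 and Rps19bp1, also uncalled and not shown, had longest runs of 4 and 5 bases. In Rpl14, Rps6 and Rplp2 the run spans the annotated start, and in Rpl4, Rps25 and Rpl22 it ends before it. The ETS core CCGGAAG was found on either strand, within 250 bases before to 50 after the start, in 38% of the members and 9.93% of all genes, and the GC box GGGCGG in 60% and 38.2%. The TATA letters TATAAA were found in 12% and 15.7%, and GATGGCGG, the core letters of a YY1 motif, in 2% and 1.97%. A match here is a run of letters and not a measured site.

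Many ribosomal protein genes have processed copies in the genome, and 38 of the 62 had more than 1 probe set under their symbol, 194 probe sets in all. Reads of a gene and of its copies could not be separated. Rpl4, Rpl22 and Rpl14 had 1 probe set each. The second probe set of Rpl36a, at a mean log2 intensity of 8.33, differed by 0.29 ± 0.16 between R172K and control, which is under 2 SE. The other probe sets of Rpl6 differed by 0.19 ± 0.07 and 0.18 ± 0.08, less than the 0.30 of the brightest. Of the 6 probe sets of Rps25, 5 had differences between 0.29 and 0.36 and 1 had -0.09 ± 0.10. With the mean of all probe sets in place of the brightest, the called members were Rpl14, Rpl22, Rpl4 and Rps13, so Rpl6, Rps25 and Rpl36a were no longer called. Over the members' 132 other probe sets the median R172K difference was 0.01 and 69 were positive. Of the 132, 1 was called higher when every probe set was tested, a probe set of Rpl10 at a mean log2 intensity of 10.41. It differed by 0.59 ± 0.10 (limma adjusted p = 0.00921 over all probe sets). The brightest probe set of Rpl10 differed by -0.03, and the rest by -0.02, -0.12 and 0.16.

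**Figure D3:**
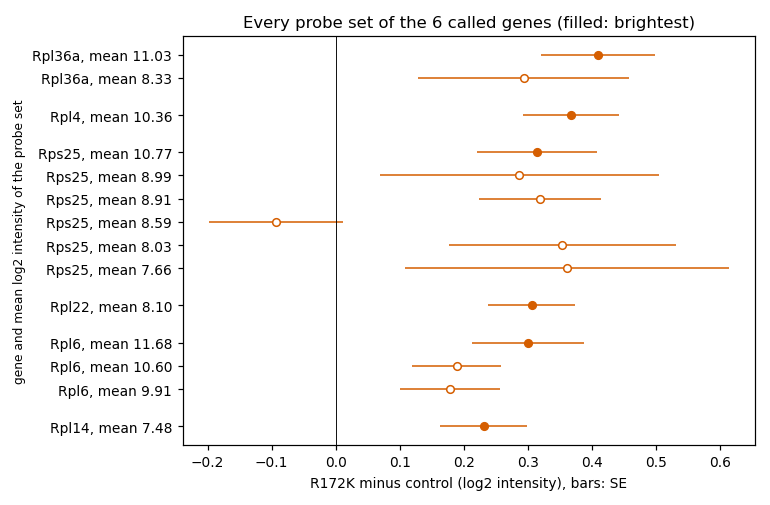
R172K minus control (log2 intensity) with its SE for each probe set of the 6 called genes, labelled with its mean log2 intensity. Filled points are the brightest probe set, which stands for the gene. One probe set of Rps25 lies at -0.09, and all others lie above 0.

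In R140Q hearts no ribosomal protein gene was called against control (limma, 0 of 62 higher and 0 lower, where 1.08% and 1.12% of all genes were called). At an unadjusted p under 0.05, none was higher (all genes, 8.79%) and 10 were lower (all genes, 8.24%). These 10 were Rpl7a, Rpl8, Rpl13, Rpl29, Rpl36, Rps3a1, Rps4l, Rps9, Rps10 and Rps14. The members' median difference was -0.04 (all genes, 0.00), or -0.064 without R140Q 1, -0.019 without R140Q 2 and -0.025 without control 2. Of the 62, 37 differences were negative (all genes, 49.1%), and 56 lay within 0.2 log2 units of 0 (90.3%, against 78.3% of all genes). In 6 members (9.68%, against 7.04% of all genes) all R140Q arrays lay below all control arrays, and in none did they lie above (all genes, 7.79%).

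The largest R140Q difference belonged to Rps3a1, a small-subunit protein. It read 9.29, 9.29, 9.34 and 8.74 in control hearts, 9.07, 8.45, 8.71 and 8.502 with R140Q and 9.29, 9.11, 8.63 and 9.30 with R172K. Control 4 and R172K 3 fell in the R140Q range, and the difference was -0.48 ± 0.18 (adjusted p = 0.191). Rpl29, a large-subunit protein, read 8.36, 8.25, 8.54 and 8.30 in control hearts, 8.14, 8.06, 7.80 and 8.20 with R140Q and 8.46, 8.60, 8.22 and 8.41 with R172K. Its 4 R140Q values were the lowest of the 12, and the difference of -0.31 ± 0.10 did not pass (adjusted p = 0.14). Rpl7a, another large-subunit protein, differed by -0.38 ± 0.16 (adjusted p = 0.227) with a dim probe set at 6.16.

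Rpl34 had the widest range of all members. It read 9.57, 9.22, 10.02 and 10.16 in control hearts, 10.09, 10.33, 10.23 and 9.94 with R140Q and 9.75, 10.52, 9.55 and 10.13 with R172K. The 3 groups overlapped, and its differences of 0.41 ± 0.22 for R140Q (adjusted p = 0.39) and 0.24 ± 0.22 for R172K (adjusted p = 0.546) lay within the spread. Rpl12, a stalk-base protein of the large subunit, read 6.88, 6.90, 6.32 and 7.09 in R172K hearts against 6.28 to 6.71 in control. R172K 3 again lay in the control range. The difference was 0.36 ± 0.16 (adjusted p = 0.159), and 0.52 without R172K 3 (adjusted p = 0.0114).

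**Figure D4:**
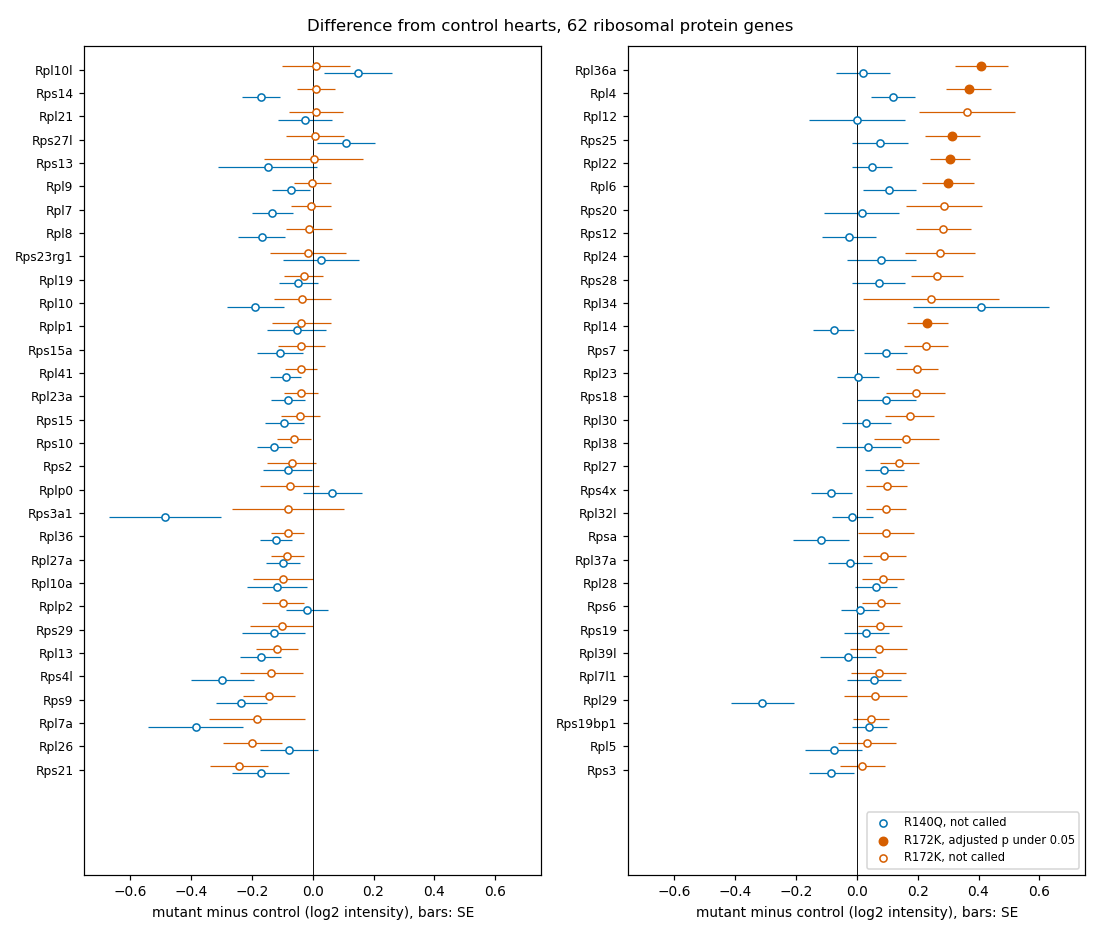
Difference of R140Q (blue) and R172K (orange) hearts from the same 4 control arrays in log2 intensity, with SE, for all 62 genes ordered by the R172K value. Filled points passed the test at an adjusted p under 0.05. All 6 filled points are R172K values between 0.23 and 0.41, and no R140Q point is filled.

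The mutants were also compared with each other, a contrast in which the control arrays enter only through the estimate of the spread. Rpl36a was higher in R172K than in R140Q hearts by 0.39 ± 0.09 (adjusted p = 0.0495) and Rpl14 by 0.31 ± 0.07 (adjusted p = 0.0469). Both p-values lie close to the threshold. These 2 of 62 are 3.23%, against 0.487% of all genes called higher, and no member was lower (all genes, 0.998%). Leaving out any 1 array other than R172K 3 brought the 2 calls to 0 (all genes, 0% to 0.502% called higher). Leaving out R172K 3 gave 9 (all genes, 3.9%). Without control 3, R140Q 4 and R172K 3 together the count was 3 (Rpl29, Rpl36a and Rps12), with 1.92% of all genes. At an unadjusted p under 0.05, 16 members were higher (all genes, 7.47%) and none lower (all genes, 8.86%).

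The direction was shared more widely than the calls. Of the 62 differences between R172K and R140Q, 54 were positive (87.1%, against 48.9% of all genes), with a median of 0.10 (all genes, -0.00) that was 0.064 without R172K 1 and 0.065 without R172K 4. Of small-subunit genes 20 of 21 were positive, with Rps21 at -0.07 as the exception, and of large-subunit genes 29 of 33. The 8 negative members were Rpl10l, Rpl26, Rpl34, Rplp0, Rplp2, Rps21, Rps23rg1 and Rps27l. Each array centred on its median gave 53 positive, and a second quantile normalization gave 51. Without R172K 4 the count was 48, without R172K 1 it was 50, and without R140Q 2 it was 47. In 8 members (12.9%, against 3.07% of all genes) every R172K array was above every R140Q array, and in none below (all genes, 4.64%). Genes measured on the same arrays are not independent, and no test was run on this count. Cell type markers went both ways in this contrast. Of 10 fibroblast markers 9 were positive (median 0.47, 1 called), of 10 macrophage markers 10 (median 0.23, none called) and of 6 atrial markers 6 (median 1.52, 1 called). Of 10 cardiomyocyte markers 2 were positive (median -0.11), of 10 endothelial 2 (-0.07) and of 7 lung 0 (-0.79). Of 4 erythroid markers 0 were positive (-0.18), of 7 lymphocyte 3 (-0.07) and of 9 proliferation 3 (-0.19). None of these was called. The part of any of the lists in the members' difference was not tested.

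Mitochondrial ribosomal protein genes, which build the separate ribosome of mitochondria, lay on the other side of 0. Of 77 such genes, 13 differences between R172K and R140Q were positive (all genes, 48.9%) and 64 negative, with a median of -0.13. In that contrast 4 genes were called lower and none higher (all genes, 0.998% and 0.487%). Against control, 5 rose and 10 fell in R172K hearts (all genes, 6.23% and 6.78%), with a median of -0.10. In R140Q hearts 3 rose (all genes, 1.08%). Whether the 2 families differed was not tested.

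**Figure D5:**
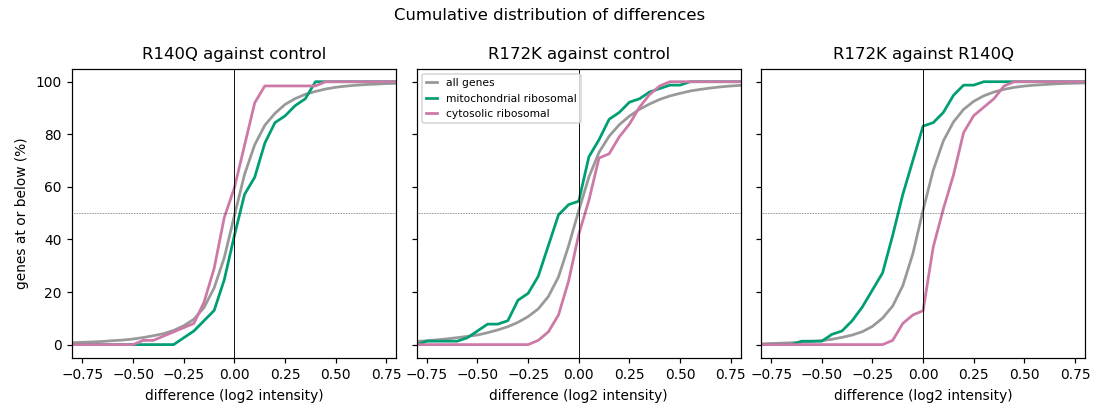
Percent of genes (vertical axis) whose log2 difference is at or below the value on the horizontal axis, for the 62 cytosolic ribosomal protein genes, 77 mitochondrial ribosomal protein genes and all 19937 genes, in each of the 3 contrasts. In R172K against R140Q the cytosolic curve is shifted to the right of all genes (median 0.10) and the mitochondrial curve to the left (median -0.13).

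By brightness, none of the 10 members with a mean log2 intensity over 12 was called in R172K hearts, and their differences lay between -0.10 and 0.09. Of 29 members between 10 and 12, 4 were called (median difference 0.09), and of 23 below 10, 2 were called (median 0.05). Bright genes in general were called. Of 151 genes with a mean over 12, 14 were higher and 23 lower. Of 1250 genes with a mean over 10, 161 were higher and 196 lower. Over genes of any brightness, 6.23% were higher. Brightness depends on the probes and was not read as the level of one gene against another. Rps6, the substrate of the S6 kinases and the brightest member, read 13.54, 13.37, 13.52 and 13.42 in control and 13.61, 13.45, 13.49 and 13.62 in R172K hearts. These groups overlapped, and the 95% interval of the difference ran from -0.06 to 0.21. Rpl36 (12.75) and Rpl9 (12.67) followed in brightness, with R172K differences of -0.08 and -0.00 that did not pass.

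The stalk proteins, which recruit translation factors to the large subunit, did not pass in any contrast. Rplp0 read 12.44 ± 0.09 in the control group, 12.50 ± 0.05 with R140Q and 12.36 ± 0.22 with R172K (mean ± SD, 4 arrays each). In the same order, Rplp1 read 12.35 ± 0.14, 12.30 ± 0.10 and 12.32 ± 0.17, and Rplp2 read 6.99 ± 0.11, 6.98 ± 0.08 and 6.90 ± 0.06. The intervals of the R172K difference ran from -0.28 to 0.14 for Rplp0, from -0.24 to 0.17 for Rplp1 and from -0.25 to 0.05 for Rplp2. Rpsa, a small-subunit protein also known as the laminin receptor precursor, read 10.62 ± 0.15, 10.50 ± 0.06 and 10.72 ± 0.16, with overlapping groups. Rpl10, which takes part in the last steps of large-subunit maturation, read 12.33, 12.35, 12.32 and 12.20 in control and 12.09, 12.03, 12.18 and 12.16 in R140Q hearts. Those groups did not overlap, but the difference of -0.19 ± 0.09 did not pass (adjusted p = 0.33).

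Paralogs and retrocopies, which can replace or accompany the main protein in some tissues, showed no call. Rps27l, a p53-responsive paralog of Rps27, read 10.31 ± 0.08 in the control group, 10.42 ± 0.19 with R140Q and 10.32 ± 0.12 with R172K. Rpl7l1, related to Rpl7, differed by 0.06 ± 0.09 and 0.07 ± 0.09 in the mutants, and Rpl7 itself by -0.13 ± 0.07 and -0.01 ± 0.07. Rpl10l and Rpl39l, known from the testis, had dim probe sets at 6.13 and 3.84, with R172K differences of 0.01 ± 0.11 and 0.07 ± 0.09. Rps4l differed by -0.30 ± 0.10 in R140Q hearts (adjusted p = 0.155), where its relative Rps4x differed by -0.08 ± 0.07, and Rpl32l differed by 0.10 ± 0.07 in R172K hearts. The 2 genes that share only the name stem, Rps19bp1 and Rps23rg1, differed by 0.05 ± 0.06 and -0.02 ± 0.12 in R172K hearts, and Rps19 by 0.08 ± 0.07.

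Other genes of ribosome production and translation were read from 7 written lists, of whose 158 genes 142 were measured. Their counts for R172K hearts stand beside 6.23% of all genes called higher and 6.78% lower, and those for R140Q hearts beside 1.08% and 1.12%. Several are near these shares. Of the ribosomal components outside the naming rule only Fau, the source of a small-subunit protein, was measured, and it differed by 0.11 ± 0.08 in R172K hearts (adjusted p = 0.41). Of 16 elongation factors and other TOP messenger genes, 1 rose in R172K hearts, the elongation factor Eef1a1 (0.35 ± 0.09, adjusted p = 0.0203), and none fell. The list's median difference was 0.13 and 14 of 16 were positive, against a median of -0.00 over all genes, while in R140Q hearts none passed and 8 of 16 were positive. Eef1d, a subunit of the exchange factor for Eef1a1, had a difference of -0.27 ± 0.08 (adjusted p = 0.0523).

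Initiation factors went both ways. In R172K hearts 4 of 19 rose, the RNA helicase Eif4a1 (0.41 ± 0.09), its cofactor Eif4h (0.30 ± 0.08), Eif5 (0.33 ± 0.08) and Eif3c (0.27 ± 0.06). The helicase paralog Eif4a2 fell by 0.37 and Eif4g2, a relative of the Eif4g scaffolds, fell by 0.28. In R140Q hearts none passed. Eif4a1 then had 0.30 ± 0.09 (adjusted p = 0.0923).

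Of 18 genes of RNA polymerase I, which makes ribosomal RNA, and its factors, 3 fell in R172K hearts and none rose. They were Polr2f, a subunit shared by all 3 nuclear RNA polymerases (fell by 0.45), the polymerase I subunit Polr1b (fell by 0.37) and Ubtf, the factor that binds ribosomal DNA (fell by 0.26). Polr2f was also lower than in R140Q hearts (-0.33 ± 0.07, adjusted p = 0.0405). Of 18, 5 differences from control were positive, with a median of -0.07. In R140Q hearts none passed and 12 were positive, with a median of 0.01.

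Of 56 genes of ribosome assembly and ribosomal RNA processing, 6 rose and 4 fell in R172K hearts. The nucleolar GTPase Gnl3 (0.54 ± 0.13), the box H/ACA protein Nhp2 (0.44 ± 0.09), the small-subunit assembly factors Nob1 (0.37 ± 0.10) and Riok1 (0.35 ± 0.10), the large-subunit export factor Lsg1 (0.34 ± 0.08) and Utp15 (0.32 ± 0.09) rose. The pseudouridine synthase Dkc1 fell by 0.56, Rrs1 by 0.47, Imp3 by 0.32 and Aamp by 0.22. In R140Q hearts Gnl3 rose by 0.55 ± 0.13 (adjusted p = 0.0481) and Dkc1 fell by 0.37 (adjusted p = 0.0438), and 43 of 56 differences were positive, with a median of 0.08. Between the mutants none of the 56 passed.

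The mTOR complex 1 list, with the S6 kinases, had 22 measured genes, of which 1 rose and 3 fell in R172K hearts. The kinase gene Mtor rose by 0.45 ± 0.12 (adjusted p = 0.0318). The translation repressor Eif4ebp2 fell by 0.44 (adjusted p = 0.011), Rps6ka5 fell by 0.60 (adjusted p = 0.0408) and Larp1, which binds TOP messengers, fell by 0.18 (adjusted p = 0.0482). In R140Q hearts Rps6ka5 fell by 0.74 (adjusted p = 0.0481), and Mtor had 0.41 ± 0.12 (adjusted p = 0.105). Of 10 measured Myc and ribosomal stress genes, the Myc antagonist Mxd4 rose by 0.27 in R172K hearts, and Mga and Mdm2 fell by 0.36 and 0.42. Mdm2, the p53 ubiquitin ligase that free ribosomal proteins bind, was also lower than in R140Q hearts (-0.45 ± 0.07, adjusted p = 0.0207). Mga, a Max partner, fell by 0.33 in R140Q hearts (adjusted p = 0.0381).

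Many of these list calls depended on single arrays. Of 27 list genes called between R172K and control hearts, 5 passed under all 23 alternatives (Eif4g2, Polr2f, Dkc1, Mga and Mdm2), and 10 passed whichever array was left out, these and Eif4a1, Eif4a2, Nhp2, Gnl3 and Eif4ebp2. Larp1 and Mxd4 passed under 5, Riok1 under 8, and Ubtf and Aamp under 9. Of the calls in R140Q hearts, Dkc1 and Mga passed under 11 of 23, Gnl3 under 10 and Rps6ka5 under 7. Between the mutants Mdm2 passed under 15, and lost its call without R140Q 1, R140Q 4, R172K 1 or R172K 2. Polr2f passed under 9 there, and when 1 array was left out it passed only without R172K 3 or R172K 4.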

How the data were processed

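RNA from mouse heart had been measured on 12 Affymetrix arrays, 1 array per sample. The deposited table holds 1 intensity per probe set and array, which the authors made with RMA, per the submitters' processing notes; the linear scale was judged from the values, and the labels name neither the RMA version nor the annotation. Log2 was taken without a pseudocount. Of 34760 probe sets, 21640 had 1 gene symbol, 1321 several and 11799 none in the platform table, and the brightest probe set by mean stood for each of 19937 genes. No filter on dim values was used. The 3 groups were fitted together with limma 3.58.1 in R 4.3.3 (lmFit, eBayes, two-sided, 9 residual degrees of freedom), with Benjamini-Hochberg adjustment over all genes and a threshold of 0.05. Errors of differences are moderated SEs. The small number of arrays limits precision. The fit was first checked on simulated data.

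Members and lists were chosen with earlier results of these data known. Named members were, per contrast, those past the threshold (up to 10 each way), the 5 brightest and 5 dimmest, the 5 with the widest and 5 with the narrowest range, those named as paralogs with their namesakes, the stalk genes and Rpsa, and of each list up to 4 genes with the smallest p. Every other member or list gene named was chosen after its values were seen. Alternatives are given in the closing section. Same-numbered arrays did not deviate together (correlations from -0.336 to 0.152), so replicate numbers were not taken as pairs.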

Additional observations from a re-analysis of the deposited data

Results flagged for a closer look

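Values far from the other 3 of their group, by Dixon's ratio above its 95% critical value, were sought among 34 named genes and the members' median in each of the 3 groups. There were 4 among 105 groups of values, and chance gives about 1 in 20. Rpl14 was 7.30 on control 2, with the other control arrays between 7.46 and 7.49. Rps3a1 was 8.74 on control 4 against 9.29 to 9.34, and Rpl10 was 12.20 on the same array against 12.32 to 12.35. Rplp1 was 12.57 on R172K 4, where the other R172K arrays lay between 12.21 and 12.25. By limma's direct contrast, as given above, Rpl14 (0.31 between R172K and R140Q) and Rpl36a (0.39) were called between the 2 mutants. These calls were kept under 5 and 6 of 23 alternatives.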

How the results depend on the processing

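No member was called in R140Q hearts under any of the 23 alternatives, and none was called lower in any contrast. The share of all genes called higher is given in brackets. The count of 6 higher in R172K hearts (6.23%) was 1 at an adjusted p under 0.01 (1.49%). It was 3 with the 8 arrays compared alone (4.02%) and 3 with every probe set tested (3.61%). It was 14 with array weights (11.7%) and 3 to 11 when 1 array was left out (2.81% to 11.1%). The count of 2 between the mutants (0.487%) was 0 at 0.01 (0%), with 8 arrays (0.0251%) and with every probe set (0.00288%). It was also 0 with an intensity trend (0.256%) and with the replicate block (0.015%). A second quantile normalization (0.446%) or the mean of probe sets (0.426%) gave 1. Array weights gave 9 (4.01%), and leaving 1 array out gave 0 to 9 (0% to 3.9%). With the replicate block 4 members were called in R172K hearts (4.61%), but numbers were not shown to pair the arrays. The members' median R172K difference of 0.015 was 0.076 without control 3, R140Q 4 and R172K 3 together, and 0.01 to 0.072 when 1 array was left out; the other medians ran from -0.064 to -0.019 (R140Q) and from 0.064 to 0.114 (between the mutants). Causes were not tested, other than that some alternatives hold fewer arrays or more tests. Of the named members' values under the alternatives, 79 lost a call, 13 gained one and 2251 did neither; none reversed.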

Other observations

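Among the probe sets of members that were not the brightest, one of Rps13 had the widest range, 5.83 log2 units. It read 5.28, 4.41, 4.43 and 8.98 in control, 8.96, 4.02, 9.03 and 8.78 in R140Q and 9.81, 9.05, 8.78 and 9.84 in R172K hearts. The values fell into 4 arrays at 5.28 or below (control 1, 2 and 3 and R140Q 2) and 8 at 8.78 or above. The brightest probe set of Rps13, with a range of 0.76, shows no such split. Its R172K difference was 0.00, while the other probe set had 3.60 ± 1.19 (limma adjusted p = 0.0884 over all probe sets), and Rps13 was called only where all probe sets were averaged.

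Another 203 probe sets carry several symbols, at least 1 of them of a ribosomal protein, and were outside the rule. With every probe set tested, 4 of them were called higher and 4 lower in R172K against control hearts, and none in the other contrasts. Between the mutants 151 of the 203 differences were positive, with a median of 0.09, as were 103 of the members' 132 other probe sets, with a median of 0.09.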
